A study of Mus musculus with 7 samples.

Results

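The MHC class II genes were followed in mouse haematopoietic stem cells (HSCs) with a conditional deletion of Mettl3, which encodes the enzyme that writes N6-methyladenosine into mRNA. The genes were taken by symbol, without a cut on a measured value, although earlier results of these data were known. They were 3 classical chains (H2-Aa, H2-Ab1, H2-Eb1), 4 chains of the peptide-exchange molecules (H2-DMa, H2-DMb1, H2-DMb2, H2-Oa), the invariant chain Cd74 and the transactivator Ciita. All 9 were among the 23038 genes of the table, and all 9 had reads, as did 14539 genes in all. The mutant group held 4 libraries from C57BL/6 mice of the genotype Mx1-cre; Mettl3fl/fl, and the control group held 3 libraries from Cre-negative littermates. Mice of both groups were injected 5 times with 10 µg of pIpC, a synthetic double-stranded RNA, on alternate days, and marrow was collected 10 days after the final dose. Mx1-cre is driven by an interferon-responsive promoter and recombines in many cell types, and pIpC itself triggers interferon in animals with and without Cre. Each library was made by Smart-seq2, a full-length cDNA method, from 150 bone marrow cells sorted as Lineage-, Sca1+, cKit+, CD150+ and CD48-.

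Values are RPKM, read numbers scaled to gene length and library size, and the deposited table holds 1 mean per gene and group. There was therefore no spread between animals for any member, no test, and no way to say which members that lie close together in level differ. Differences are given as log2((mutant + 1) / (control + 1)) in RPKM, which shrinks differences between values near or below 1, and folds are ratios of the deposited means. The value of a single read in low genes gave effective library sizes of 25.7 to 37.7 M reads in mutants and 19.6 to 31.1 M reads in controls. Mettl3 itself was at 9.60 RPKM in mutants, against 49.8 RPKM in controls, so 19.3% of the control level remained in the mutant mean.

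MHC class II molecules are pairs of an alpha and a beta chain that show peptides from the endosome to CD4 T cells. The invariant chain blocks their groove until proteases of the endosome trim it. The DM pair then exchanges its last fragment for other peptides, and the DO pair restrains DM. Ciita switches the whole set on by binding the factors that sit on a shared promoter module, the X box (bound by RFX and CREB) and the Y box (bound by NF-Y). The set is best known from dendritic cells, B cells and macrophages, and class II is also found on HSCs.

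The shared module was read from RefSeq promoters (GRCm38.p6, 250 bases before to 50 after the annotated start), which matched 6 of the 9 members. H2-Ab1, Cd74 and Ciita were not matched. The stretches below are shown because they hold letters of this module, and H2-Ob, the beta chain of DO, is shown with them although it is not a listed member. Each is given 5′ to 3′ on the strand of the gene. Capitals mark AAC, any 2 bases and ATGATG (11 letters in all, taken here as the X box), TGACGTCA (the CREB site) and ATTGG (the Y box). The matches printed do not overlap one another. The X box letters were written with the promoters of these genes in view.
H2-Eb1 (chr17:34305763-34305822, plus strand): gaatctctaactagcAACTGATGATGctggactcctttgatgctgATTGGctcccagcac
H2-DMb1 (chr17:34153084-34153144, plus strand): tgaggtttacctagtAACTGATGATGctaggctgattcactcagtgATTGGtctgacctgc
H2-DMb2 (chr17:34145113-34145173, plus strand): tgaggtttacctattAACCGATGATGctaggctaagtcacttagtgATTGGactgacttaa
H2-Ob (chr17:34238805-34238862, plus strand): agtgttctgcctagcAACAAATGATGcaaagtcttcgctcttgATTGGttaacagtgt
H2-Aa (chr17:34287857-34287912, minus strand): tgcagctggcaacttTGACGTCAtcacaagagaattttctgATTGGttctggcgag
H2-Oa (chr17:34092291-34092350, plus strand): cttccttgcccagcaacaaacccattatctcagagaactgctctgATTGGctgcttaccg

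ATTGG lay between 43 bases (H2-Oa) and 90 bases (H2-DMb2) before the annotated start in these 6 promoters. Between the X box letters and ATTGG there were 17 bases in H2-Ob, 19 in H2-Eb1, and 20 in H2-DMb1 and in H2-DMb2. Among 32851 promoters of the same length, searched on both strands, 37.4% held ATTGG, 1.79% held TGACGTCA and 0.137% held the X box letters. The X box letters followed by ATTGG within 40 bases stood in 5 promoters: those of H2-DMb1, H2-DMb2, H2-Eb1 and H2-Ob, and that of 2310002L09Rik. H2-Oa held ATTGG alone, without the X box letters or TGACGTCA. H2-DMa, not printed, has 2 annotated promoters, of which 1 held ATTGG and neither held the X box letters. The promoter of H2-Eb2, which is neither a listed member nor printed, held ATTGG without the X box letters or TGACGTCA. These are matches of letters, and none of them was measured as bound.

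Class II transcripts were abundant in HSCs of both groups, and the listed genes did not differ in a single direction. Cd74 and H2-Oa were higher in the mutant mean, H2-Eb1 was near equal, and the other 6 were lower. Of the 14539 genes with reads, 7649 had a higher and 6890 a lower mutant mean. The counts of direction in each list below are to be read beside these. No member was 2-fold apart in either direction (0 of 9), where 7.14% of the 14539 genes with reads were (3.67% higher and 3.47% lower), a background near the members' count. Their median log2 difference was -0.30, beside 0.02 for all genes with reads. A smaller step of 1.5-fold on the same scale, chosen after the values were seen, was passed downward by H2-DMa and H2-DMb2 (2 of 9), against 10.4% of genes with reads, and upward by 0 of 9, against 13% of them. Among 1426 genes that reached 100 RPKM in a group, where H2-DMa belongs, 6.17% passed it downward and 6.45% upward.

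**Figure D1:**
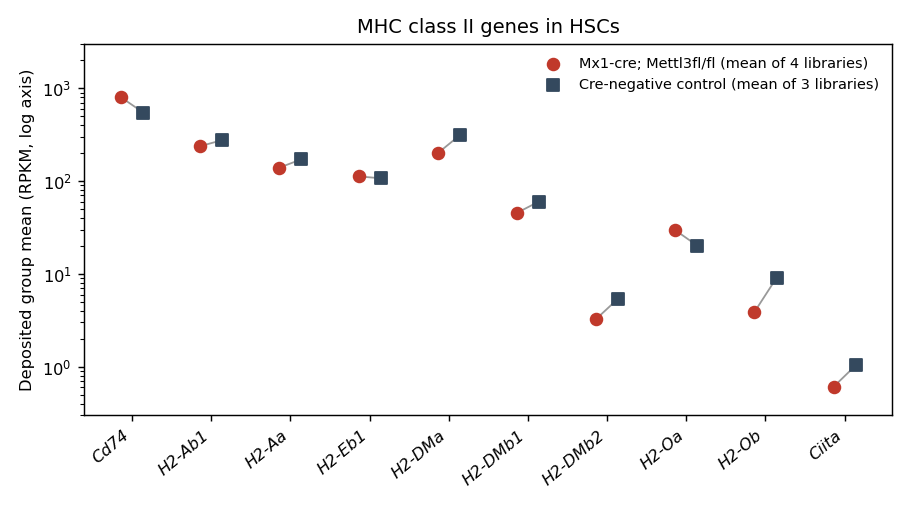
Deposited group means in RPKM (log axis) of the 9 listed class II genes and H2-Ob, with mutants as red circles and controls as dark squares; there are no error bars because the table holds 1 mean per group. Cd74 is the highest in both groups (800.04 RPKM in mutants and 548 RPKM in controls) and Ciita the lowest (0.608 RPKM in mutants and 1.04 RPKM in controls).

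Cd74, the chaperone that holds new class II molecules and also serves as a surface receptor for the cytokine MIF, was at 800.04 RPKM in mutants, against 548 RPKM in controls. It ranked 34th by RPKM among all genes of the table in mutants and 86th in controls. The mutant mean was 1.46-fold the control mean, a log2 difference of 0.54.

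The classical chains make up the I-A and I-E molecules that present peptides. H2-Ab1, the beta chain of I-A, was at 238 RPKM in mutants, against 276 RPKM in controls. H2-Aa, its alpha partner, was at 139.6 RPKM in mutants, against 172 RPKM in controls. Both I-A chains were thus somewhat lower in the mutant mean, with log2 differences of -0.22 and -0.30. H2-Eb1, the beta chain of I-E, was at 112 RPKM in mutants and 107 RPKM in controls, a log2 difference of 0.07. Mice of the C57BL/6 background carry a defective alpha gene of I-E, and its row, H2-Ea-ps, stood in both groups at the level of genes without reads. H2-Aa stood to H2-Ab1 at a ratio of 0.587 in mutants and 0.622 in controls.

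Cd74 differed in the opposite direction to the I-A chains it escorts. The classical chains summed to 490.02 RPKM in mutants, against 556 RPKM in controls. Cd74 was 1.63 times that sum in mutants and 0.987 times that sum in controls. Of the summed RPKM of the 8 members other than Ciita, Cd74 made up 51.0% in mutants and 36.5% in controls. With Cd74 the sum was 1568 RPKM in mutants and 1502 RPKM in controls, and without it 768 RPKM in mutants and 954 RPKM in controls. The direction of the sum therefore turned when Cd74 was left out. The 8 members took 0.314% of all RPKM in mutants and 0.298% in controls.

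The DM pair catalyses peptide exchange. H2-DMa, its alpha chain, was at 199 RPKM in mutants, against 312 RPKM in controls. It was 1.57-fold lower, a log2 difference of -0.65, which is the largest of the 9 on the pseudocount scale. Its RefSeq span shares 3122 bases with Brd2, which was at 14.2 RPKM in mutants and 28.5 RPKM in controls, and Smart-seq2 does not mark the strand of a read. H2-DMb1, a beta chain of DM, was at 45.4 RPKM in mutants, against 60.3 RPKM in controls. H2-DMb2, the neighbouring copy of the beta chain gene, was at 3.26 RPKM in mutants, against 5.43 RPKM in controls, 1.67-fold lower. All 3 DM genes were lower in the mutant mean. The longest coding transcripts of the beta copies were 94.6% identical over 1219 aligned bases (GENCODE M21), so reads may have been divided between them. Their sum was 48.7 RPKM in mutants and 65.7 RPKM in controls. It depends little on that division if such reads were counted and the lengths used for the copies were close. Those lengths are unknown, and the transcripts aligned here had 1404 bases (H2-DMb1) and 1483 bases (H2-DMb2). H2-DMa stood above this sum by 4.09-fold in mutants and 4.76-fold in controls.

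The DO pair binds DM and limits it. H2-Oa, the alpha chain, was at 29.6 RPKM in mutants, against 20.1 RPKM in controls, a 1.47-fold higher level and a log2 difference of 0.54. H2-Oa lies inside the RefSeq span of BC051537, which was at 7.14 RPKM in mutants and 9.16 RPKM in controls. H2-Ob, the beta chain and not among the 9, was at 3.88 RPKM in mutants, against 9.07 RPKM in controls, 2.34-fold lower and past 2-fold on the pseudocount scale (log2 -1.05). The chains of DO thus differed in opposite directions. H2-Oa over H2-Ob was 7.64 in mutants and 2.22 in controls. H2-Eb2, a further beta chain gene, was at 0.0296 RPKM in mutants and 0.0758 RPKM in controls, too low for a direction to be read.

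Ciita, the regulator of the set, was the lowest member, at 0.608 RPKM in mutants, against 1.04 RPKM in controls. The ratio of the means was 0.587, and the log2 difference was -0.77 without a pseudocount and -0.34 with it, since both values are near the pseudocount of 1 RPKM. It ranked 11760th of all genes in mutants and 11016th in controls. Its span shares 858 bases with Dexi, which differed the other way, at 23.8 RPKM in mutants and 12.7 RPKM in controls.

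**Figure D2:**
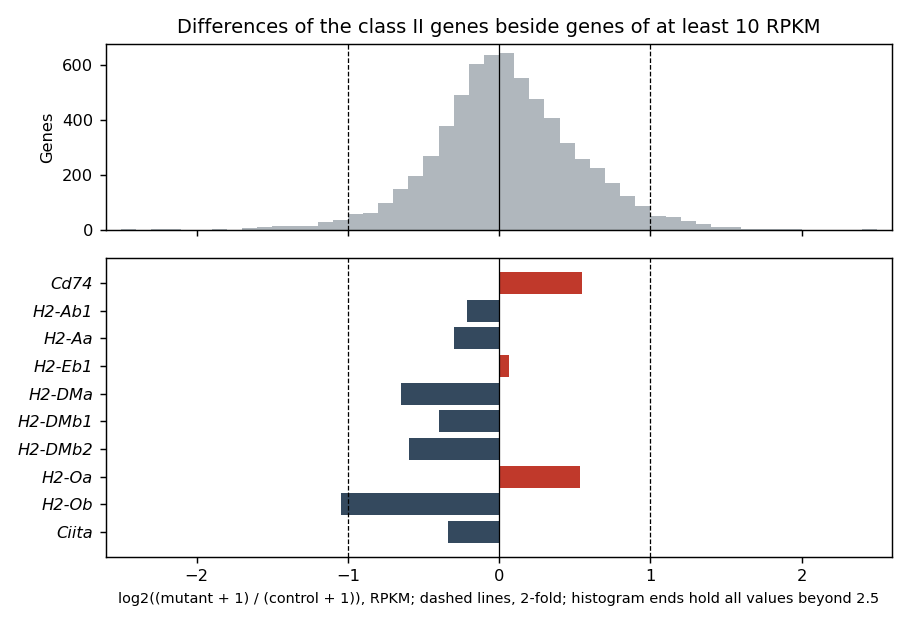
Lower panel, log2((mutant + 1) / (control + 1)) of each class II gene, red where the mutant mean was higher and dark where it was lower; upper panel, the same quantity for the 6607 genes with at least 10 RPKM in a group. Dashed lines mark 2-fold; only H2-Ob, which is not a listed member, passes one.

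Of the 9 members, 7 lie within 252 kb of chromosome 17 (34092379 to 34344645 in GRCm38.p6, from the start of H2-Oa to the end of H2-Ea-ps), with Cd74 on chromosome 18 and Ciita on chromosome 16. The interval held 9 genes of the table that were not listed members, 8 of them with reads. Of these 8, 4 had a higher and 4 a lower mutant mean, with a median log2 difference of -0.02. The class I peptide transporter genes Tap1, at 75.7 RPKM in mutants and 45.7 RPKM in controls, and Tap2, at 78.7 RPKM in mutants and 66.3 RPKM in controls, were higher. The proteasome genes Psmb8, at 932 RPKM in mutants and 919 RPKM in controls, and Psmb9, at 460.3 RPKM in mutants and 449.6 RPKM in controls, were near equal. The 4 lower ones were H2-Ob and H2-Eb2, themselves class II chain genes, and Brd2 and BC051537, which overlap H2-DMa and H2-Oa. H2-Eb2 was too low for a direction to be read. The lower neighbours were thus class II chain genes or genes whose spans overlap a member. Whether reads were shared across these overlaps was not tested. BC051537 was lower in the mutant mean while H2-Oa, which it overlaps, was higher.

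**Figure D3:**
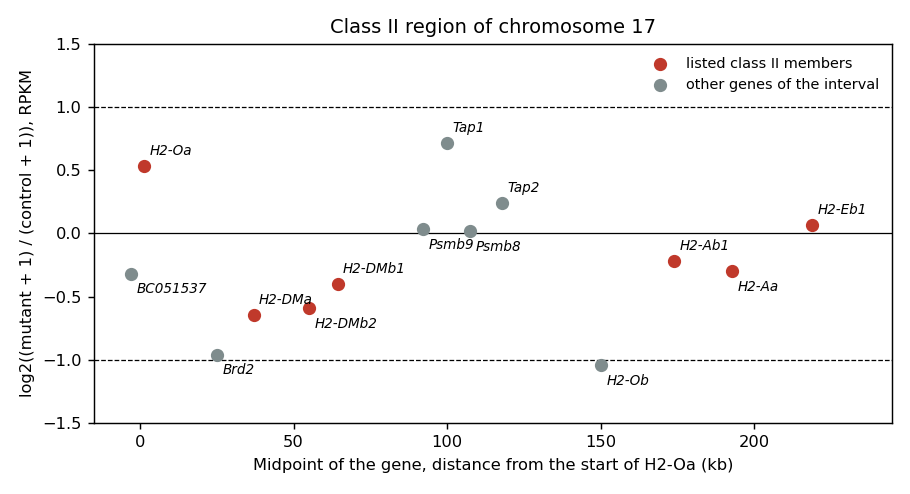
Log2((mutant + 1) / (control + 1)) of genes with at least 1 RPKM in a group, by distance of the gene's midpoint from the start of H2-Oa in kb. Listed class II members (red) and other genes (grey) lie on both sides of 0, and H2-Ob (log2 -1.05) is the only one past the dashed 2-fold lines.

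The 7 genes of the promoter complex differed in both directions: 3 had a higher and 4 a lower mutant mean, none 2-fold, with a median log2 difference of -0.01. Among the RFX subunits, Rfx5 was at 4.82 RPKM in mutants and 6.28 RPKM in controls, and Rfxank was at 24.9 RPKM in mutants and 30.2 RPKM in controls. Rfxap, the remaining RFX subunit, was at 12.8 RPKM in mutants and 10.1 RPKM in controls. Of the NF-Y subunits, Nfya was at 4.64 RPKM in mutants and 2.79 RPKM in controls, the largest difference of the complex. Nfyb was at 12.6 RPKM in mutants and 15.1 RPKM in controls, and Nfyc at 22.04 RPKM in mutants and 22.3 RPKM in controls. Creb1 was at 4.98 RPKM in mutants and 4.46 RPKM in controls. All 7 genes exceeded Ciita in level.

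Interferon gamma induces Ciita through its receptor, the JAK kinases and IRF1. Of 8 genes read for this route, 6 had a higher and 2 a lower mutant mean, with a median log2 difference of 0.08. Over all 14539 genes with reads the counts were 7649 higher and 6890 lower. The receptor chain Ifngr2 was at 40.6 RPKM in mutants and 22.2 RPKM in controls, and Ifngr1 at 149 RPKM in mutants and 111 RPKM in controls. Irf1, which acts on a Ciita promoter, was at 80.8 RPKM in mutants and 56.5 RPKM in controls. Ciita itself, with both means near 1 RPKM, was lower while these 3 were higher, and a link between them was not tested. Irf2 was at 27.6 RPKM in mutants and 37.0 RPKM in controls. Jak1, Jak2, Usf1 and Socs1, a feedback inhibitor of JAKs, lay within 0.1 of 0 on the log2 scale, with Jak2 lower and the other 3 higher in the mutant mean. Among 12 further regulators of Ciita or class II, 4 were without reads in both groups, namely Irf4, Prdm1, Pax5 and Ebf1, and of the other 8, 4 were higher and 4 lower. Zfp36, an mRNA decay factor, was at 55.7 RPKM in mutants and 121 RPKM in controls, 2.18-fold lower. Crebbp, a histone acetyltransferase, was at 9.84 RPKM in mutants and 15.5 RPKM in controls, and its relative Ep300 at 2.80 RPKM in mutants and 2.01 RPKM in controls. Irf8, a factor of dendritic and myeloid cells, was at 2.27 RPKM in mutants and 0.917 RPKM in controls.

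Endosomal proteases cut the invariant chain and the antigen. Of 9 genes for proteases and their partners, 3 had a higher and 6 a lower mutant mean, with a median log2 difference of -0.09. Ifi30, the interferon-induced thiol reductase that opens disulfide bonds of antigens, was the only one 2-fold apart, at 26.7 RPKM in mutants against 10.8 RPKM in controls. Ctss, the protease that trims the invariant chain in dendritic and B cells, was at 29.3 RPKM in mutants and 32.5 RPKM in controls. Ctsl, which serves this step in the thymus, was at 56.2 RPKM in mutants and 71.7 RPKM in controls. Cst3, which encodes the cathepsin inhibitor cystatin C, was at 403 RPKM in mutants and 510.1 RPKM in controls. Ctsz was at 345 RPKM in mutants and 274.02 RPKM in controls. The remaining 4, Ctsb, Ctsd, Ctsh and Lgmn, lay between -0.12 and 0.11.

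Turnover of surface class II is set by ubiquitination, which Cd83 opposes. Cd83 was at 3.34 RPKM in mutants, against 0.0192 RPKM in controls, a log2 difference of 2.09 on the pseudocount scale. Its control mean was close to the level of genes without reads, and how many mutant libraries held its reads is unknown. Tmem127 was at 4.36 RPKM in mutants and 6.10 RPKM in controls. Of the costimulatory and inhibitory ligands that act beside class II, 4 of 7 were higher and 3 lower. Among the 4, Cd80 rested on 1 read in 1 mutant library, with 0 reads in controls. Cd86 was at 4.94 RPKM in mutants and 9.36 RPKM in controls, and Pdcd1lg2, which encodes the inhibitory ligand PD-L2, was 4.06-fold lower at 1.01 RPKM in mutants, against 4.09 RPKM in controls. Cd40 was at 0.580 RPKM in mutants and 0.0223 RPKM in controls, and the adhesion molecule gene Icam1 at 16.6 RPKM in mutants and 22.2 RPKM in controls. Among partners of Cd74 as a receptor, Mif, its ligand, was at 408 RPKM in mutants and 412 RPKM in controls, and Cd44, its signalling partner, at 16.2 RPKM in mutants and 14.5 RPKM in controls. Ddt, a relative of Mif, was at 71.9 RPKM in mutants and 69.5 RPKM in controls. The chemokine receptors Cxcr2, at 0.696 RPKM in mutants and 0.0171 RPKM in controls, and Cxcr4, at 0.752 RPKM in mutants and 1.30 RPKM in controls, were low. The control means of Cd40 and Cxcr2, like that of Cd83, were close to the level of genes without reads.

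The class I set gives a measure beside which the class II levels can be read. Of 11 class I genes, 7 had a higher and 4 a lower mutant mean, none 2-fold, with a median log2 difference of 0.02 against -0.30 for the class II members. B2m, the light chain of class I, was at 1232 RPKM in mutants and 1525 RPKM in controls, and the aminopeptidase gene Erap1 at 24.1 RPKM in mutants and 18.0 RPKM in controls. Nlrc5, the class I counterpart of Ciita, was at 4.18 RPKM in mutants and 5.00 RPKM in controls. The difference between the lists was not tested.

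**Figure D4:**
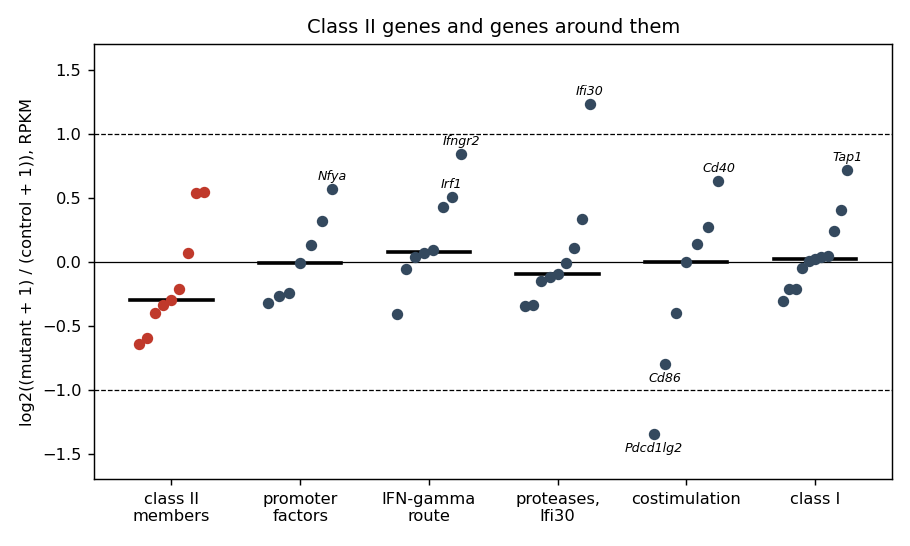
Log2((mutant + 1) / (control + 1)) of each gene, in RPKM, for the class II members (red) and 5 lists of genes around them (dark), with bars at the list medians and dashed lines at 2-fold. The class II median lies at -0.30 and those of the other lists between -0.09 and 0.08; genes of the other lists at least 0.5 from 0 are named.

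Markers of HSCs and of other marrow cells, most of which carry class II, were read in the same table, and their part in the class II differences was not tested. In bulk RNA, fewer cells of a type and less RNA per cell cannot be told apart. All 11 genes of the HSC list had reads. Ly6a, which encodes Sca1, was the highest, at 167 RPKM in mutants and 152 RPKM in controls, and Cd48, whose protein was sorted against, the lowest, at 4.04 RPKM in mutants and 5.33 RPKM in controls. Kit, the gene of the sorted receptor, Hlf, Fgd5 and Mllt3 were the farthest apart, with log2 differences of -0.74, -0.65, -0.45 and 0.45. The list summed to 478 RPKM in mutants and 478 RPKM in controls. Of 10 dendritic cell markers, 6 were without reads in both groups, namely Itgax, Xcr1, Cd209a, Siglech, Ccr7 and Batf3, and 9 were under 1 RPKM in both. The exception was Flt3, also expressed in progenitors, at 4.71 RPKM in mutants and 9.76 RPKM in controls. Zbtb46 was at 0.864 RPKM in mutants and 0.0439 RPKM in controls, and Clec10a at 0.582 RPKM in mutants and 0.200 RPKM in controls. How many libraries held these reads is unknown. The dendritic list summed to 6.28 RPKM in mutants and 10.2 RPKM in controls.

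Of 10 B cell markers, 5 were without reads in both groups, namely Cd79a, Ms4a1, Pax5, Blk and Igll1, and 7 were under 1 RPKM in both. Cd22 had 0 reads in mutants, with 1 and 3 reads in 2 control libraries. Cd79b was the highest at 133 RPKM in mutants and 132 RPKM in controls, and made up nearly all of the list's sum of 135 RPKM in mutants and 136 RPKM in controls. Fcer2a was at 0.653 RPKM in mutants and 1.60 RPKM in controls, Vpreb1 at 0.859 RPKM in mutants and 1.69 RPKM in controls, and Bank1 at 0.863 RPKM in mutants and 0.634 RPKM in controls.

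Of 10 macrophage and monocyte markers, 3 were without reads in both groups, namely Csf1r, Marco and Ccr2, and 8 were under 1 RPKM in both. The list summed to 4.33 RPKM in mutants and 2.88 RPKM in controls. C1qa was at 1.38 RPKM in mutants and 0.212 RPKM in controls, and C1qb at 0.904 RPKM in mutants and 1.87 RPKM in controls. Cd14 came from 48 and 72 reads in 2 mutant libraries and 0 reads in controls, and Fcgr1 from 1 and 74 reads in 2 mutant libraries and 0 reads in controls. Of 11 markers of T, natural killer and innate lymphoid cells, 5 were without reads in both groups, namely Cd3e, Cd3g, Cd8a, Ncr1 and Il7r. The list summed to 91.8 RPKM in mutants and 158 RPKM in controls. Nkg7, the highest of them, was at 62.3 RPKM in mutants and 124 RPKM in controls, Gata3 at 19.5 RPKM in mutants and 22.4 RPKM in controls, Klrb1c at 1.74 RPKM in mutants and 2.44 RPKM in controls, and Cd4 at 0.0856 RPKM in mutants and 0.442 RPKM in controls. Each of the dendritic, B cell and macrophage lists therefore held markers without reads, such as Itgax, Ms4a1 and Csf1r, and markers with reads, of which Zbtb46, Clec10a, C1qa, Cd14 and Fcgr1 had a higher mutant mean and Flt3, Fcer2a, Vpreb1 and C1qb a lower one. H2-Aa, H2-Ab1, H2-Eb1, H2-DMa and Cd74 were each above 100 RPKM in both groups.

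**Figure D5:**
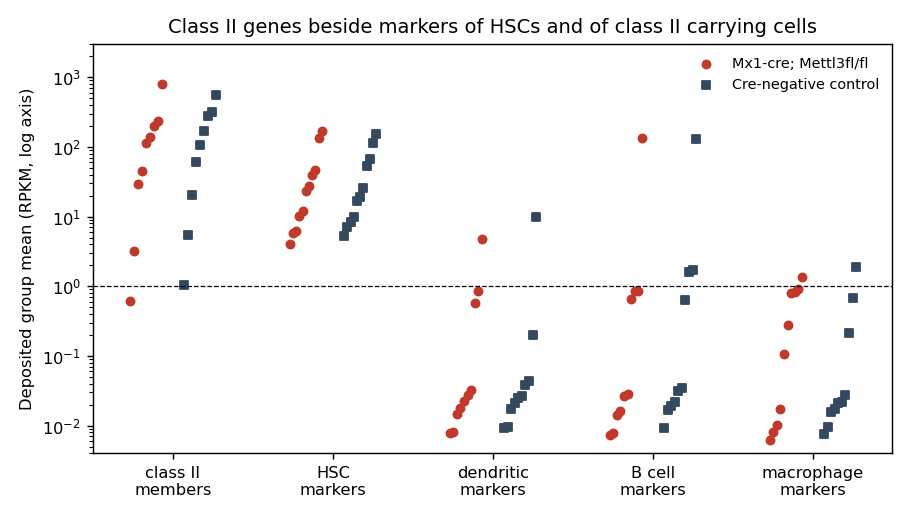
Deposited group means in RPKM (log axis) of the class II members, the HSC markers and markers of dendritic cells, B cells and macrophages, each dot a gene, with mutants as red circles left of controls as dark squares; the dashed line is 1 RPKM. Most markers of the last 3 lists lie below the line in both groups, with Flt3 and Cd79b as the highest exceptions, whereas 8 of the 9 class II members lie above it in both.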

How the data were processed

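Smart-seq2 RNA-seq of sorted HSCs was analysed from the deposited table. Per the file headers its values are RPKM, 1 column per group, and the authors pooled 4 mutant and 3 control libraries in them. Per the submitters' processing notes mm10, Picard and edgeR were used; their roles, like the aligner, are not stated in the sources used here. The values behave as means over libraries of (reads + 1) / (length × library size): 8499 genes (36.9%) stood at a length-dependent floor of 0.0349 RPKM in mutants and 0.0414 RPKM in controls for 1 kb, read as no reads. Where a group was at this floor, the gene's length followed, and whole reads per library were solved for genes of few reads (545 of 554 tried in mutants, 307 of 310 in controls). The procedure was tried on simulated data made with this same formula. That trial cannot show that the deposited values were made this way. The procedure gives no reads for the 9 members, whose lengths are unknown, and libraries could not be tied to animals. Precision at each value is therefore unknown.

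No test was run. Genes were counted at 2-fold on log2((mutant + 1) / (control + 1)). Coordinates and promoters are RefSeq's on GRCm38.p6, and 22959 of 23038 gene identifiers matched. The members and gene lists were chosen with earlier results of these data known. Named were all members and all genes of the lists on class II chains, promoter factors, the interferon gamma route, proteases and turnover. Of each other list the 4 farthest apart were named, and for the marker lists also the highest. Mif, Nlrc5, Cd48 and the neighbours of the class II genes were added after their values were seen. March1, March8, Spi1, Sppl2a and Adgre1 were not analysed here, and some further genes of the lists are not reported here and enter no list count. Python 3.11.15, numpy 2.4.6, pandas 2.3.3 and Biopython 1.88 were used.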

Additional observations from a re-analysis of the deposited data

How the results depend on the processing

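Pseudocounts of 0.1 RPKM and of 0, division of the mutant column by the median ratio, and scaling to equal sums left the direction of each of the 9 members as it was, and none of these 36 ratios moved by 1.5 times; the log2 difference of Ciita ran to -0.77 without a pseudocount. The median log2 difference of the members stayed between -0.32 and -0.29, 6 of 9 were lower, and none was 2-fold apart under these settings or with a minimum of 1 RPKM. The count at 1.5-fold was not repeated under these settings. The log2 ratio of the summed RPKM of the members other than Ciita was 0.06 and turned to -0.31 without Cd74, because the other 7 sum to less in mutants. With H2-Ob added, a setting chosen after seeing the data, 1 gene in place of 0 was 2-fold lower. No paired analysis was possible because each column pools the libraries of a group. Leaving out replicates, a replicate block and limma were not run, since they need values per library.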
